A study of Mus musculus with 11 samples.

Results

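The 10 genes described here are 8 Toll-like receptor genes (Tlr1, Tlr2, Tlr3, Tlr4, Tlr6, Tlr7, Tlr8 and Tlr9), Unc93b1 and Myd88, in common lymphoid progenitors (CLPs) of the bone marrow, from which lymphocytes arise. They were chosen by name, with earlier results of these data known, and each was read from the probe set that carries its symbol alone. All 10 had such a probe set and make up 10 of the 22180 genes tested. The 11 arrays fell into 4 groups of CLPs from C57BL/6 mice, sorted by flow cytometry on day 10. Ly-6D+ CLPs from mice given 50 µg of CpG1826 had 3 arrays, Ly-6D+ CLPs from mice given PBS 2 arrays, Ly-6D- CLPs from CpG-treated mice 3 arrays and Ly-6D- CLPs from PBS-treated mice 3 arrays. CpG1826 is a synthetic DNA oligonucleotide with unmethylated CpG motifs and a ligand of Tlr9, and it or PBS was given on alternate days. The labels give neither the age of the mice nor say if a replicate was an animal of its own or a pool, and a p therefore measures the spread between these samples alone, which may be technical.

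Ly-6D is a surface protein that marks CLPs entering the B lineage, and the sort could be checked on its gene. Ly6d had log2 levels of 12.55 to 12.61 in Ly-6D+ CLPs after CpG and 12.56 to 12.59 after PBS, against 7.47 to 8.08 in Ly-6D- CLPs after CpG and 8.03 to 8.50 after PBS. The CLP genes Il7r and Flt3 were at 9.05 or more on every array. Both CpG arrays numbered 3 stood apart from the others of their groups on the second principal component, at -0.4 against 11.6 and 15.5 in Ly-6D+ CLPs and at -0.7 against 22.7 and 19.4 in Ly-6D- CLPs. Calls of the 10 genes, and of the pathway genes that passed, that change without both of them are given with each gene, an alternative added after the data were seen. The 2 to 3 arrays per group limit the precision, and how far a signal stood above background is unknown. Levels are log2 values of the deposited table and are compared between arrays for 1 gene at a time, never between genes, because probe sets differ in brightness.

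Toll-like receptors sense microbial products. Tlr3, Tlr7, Tlr8 and Tlr9 reside in endosomes and bind nucleic acids, while Tlr1, Tlr2, Tlr4 and Tlr6 stand at the cell surface and bind lipopeptides and lipopolysaccharide. Unc93b1 is the chaperone that carries the endosomal receptors out of the endoplasmic reticulum. Myd88 is the adaptor through which all of these receptors except Tlr3 signal towards NF-kB and interferon regulatory factors. B-lineage cells and plasmacytoid dendritic cells are known for high Tlr7 and Tlr9, and monocytes and granulocytes for the surface receptors.

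The promoters of Tlr9, Tlr1 and Tlr2 are shown because Tlr9 was the member that differed most between the PBS populations and Tlr1 and Tlr2 had the largest positive CpG changes among the surface receptors. Each runs 5′ to 3′ on the gene's strand from 250 bases before to 50 bases after the start site in RefSeq's GRCm38.p6 annotation, which lists such a window for 7 of the 10 genes. Capitals mark matches on either strand to a PU.1 core (GAGGAA), a GAS element (TTCNNNGAA), an ISRE core or the NF-kB consensus. PU.1 is a transcription factor of myeloid and B cells, GAS and ISRE elements are read by interferon-activated factors, and NF-kB is the factor downstream of Myd88. For Tlr1, 1 of its 2 annotated windows is given, the one farther upstream, and the motifs found depend on that choice.
Tlr9, chr9:106222348-106222647, plus strand: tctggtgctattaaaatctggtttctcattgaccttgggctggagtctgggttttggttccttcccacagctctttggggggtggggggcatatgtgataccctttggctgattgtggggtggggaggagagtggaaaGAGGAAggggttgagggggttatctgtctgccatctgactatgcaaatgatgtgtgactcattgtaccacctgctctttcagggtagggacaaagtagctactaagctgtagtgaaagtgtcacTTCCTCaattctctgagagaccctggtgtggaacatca
Tlr1, chr5:64933509-64933808, minus strand: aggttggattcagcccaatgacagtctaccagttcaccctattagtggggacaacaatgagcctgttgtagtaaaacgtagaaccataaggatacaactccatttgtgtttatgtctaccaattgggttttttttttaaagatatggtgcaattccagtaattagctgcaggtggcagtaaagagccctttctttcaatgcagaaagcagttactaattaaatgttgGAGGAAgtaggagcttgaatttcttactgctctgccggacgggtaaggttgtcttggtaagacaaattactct
Tlr2, chr3:83841559-83841858, minus strand: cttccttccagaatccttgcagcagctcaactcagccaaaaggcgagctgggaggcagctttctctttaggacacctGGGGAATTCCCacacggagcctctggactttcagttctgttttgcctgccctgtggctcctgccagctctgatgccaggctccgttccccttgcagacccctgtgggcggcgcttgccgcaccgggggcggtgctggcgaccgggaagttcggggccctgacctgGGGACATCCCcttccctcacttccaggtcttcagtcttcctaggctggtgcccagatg
The Tlr9 window held 2 PU.1 cores, 112 bases before and 12 bases after the start site, and the Tlr1 window shown held 1, 23 bases before it. The other Tlr1 window held no PU.1 core but a GAS element, 228 bases before its own start site. The Tlr2 window held 3 matches to the NF-kB consensus, 2 of which overlap, at 173 and 172 bases before the start site, and the last 8 bases before it. Among all 32851 promoter windows of this length, 28.3% held a PU.1 core, 8.30% a GAS element, 3.44% an ISRE core and 8.46% an NF-kB match. Windows of members not shown held such matches too. Tlr3 had 1 NF-kB match, Tlr8 had 1 PU.1 core and 1 GAS element, and Myd88 had 1 GAS element and 1 ISRE core. Of the 2 windows of Tlr6, 1 held 2 ISRE cores and the other 2 GAS elements. All of these are matches of letters and not measured binding.

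Between the populations, Tlr9 and Unc93b1 were higher in Ly-6D+ than in Ly-6D- CLPs after PBS. After CpG, Tlr7 was higher and Tlr1 lower in Ly-6D+ than in Ly-6D- CLPs. The CpG treatment itself moved 1 of the 10 genes past the test, Tlr7, which fell in Ly-6D- CLPs. Each change is a log2 difference from 1 limma model over all 11 arrays, and the threshold for a gene was 0.05 after Benjamini-Hochberg adjustment over all 22180 genes.

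In Ly-6D+ CLPs, 0 of the 10 genes passed for CpG minus PBS, where 0.0271% of all genes passed. By limma 0 of the 10 had an unadjusted p below 0.05, where 6.51% of all genes did, and 0 passed under every alternative fit tried. In Ly-6D- CLPs, 1 of the 10 passed for CpG minus PBS, a lower one, against 0.546% of all genes in both directions and 0.243% lower, and 6 had an unadjusted p below 0.05 against 12.0% of all genes. For CpG minus PBS averaged over the populations 0 of the 10 passed against 0.482% of all genes, although 6 had an unadjusted p below 0.05 against 11.3% of all genes. For the difference between the populations in their CpG changes, 0 of the 10 and 0% of all genes passed. There 3 of the 10 genes, Tlr7, Tlr9 and Unc93b1, had an unadjusted p below 0.05, against 6.37% of all genes.

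After CpG, 2 of the 10 genes passed between the populations, 1 higher and 1 lower in Ly-6D+ CLPs, against 2.14% of all genes, 1.20% higher and 0.938% lower. An unadjusted p below 0.05 was found for 6 of the 10 against 12.7% of all genes. After PBS, 2 of the 10 passed, both higher in Ly-6D+ CLPs, against 1.98% of all genes, 1.18% higher. An unadjusted p below 0.05 was found for 4 of the 10 against 11.9% of all genes. These comparisons share no arrays with each other, but each shares its arrays with the comparisons of CpG and PBS. Because the arrays measure pooled RNA of sorted cells, fewer cells that express a gene and less of its RNA per cell cannot be told apart.

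**Figure D1:**
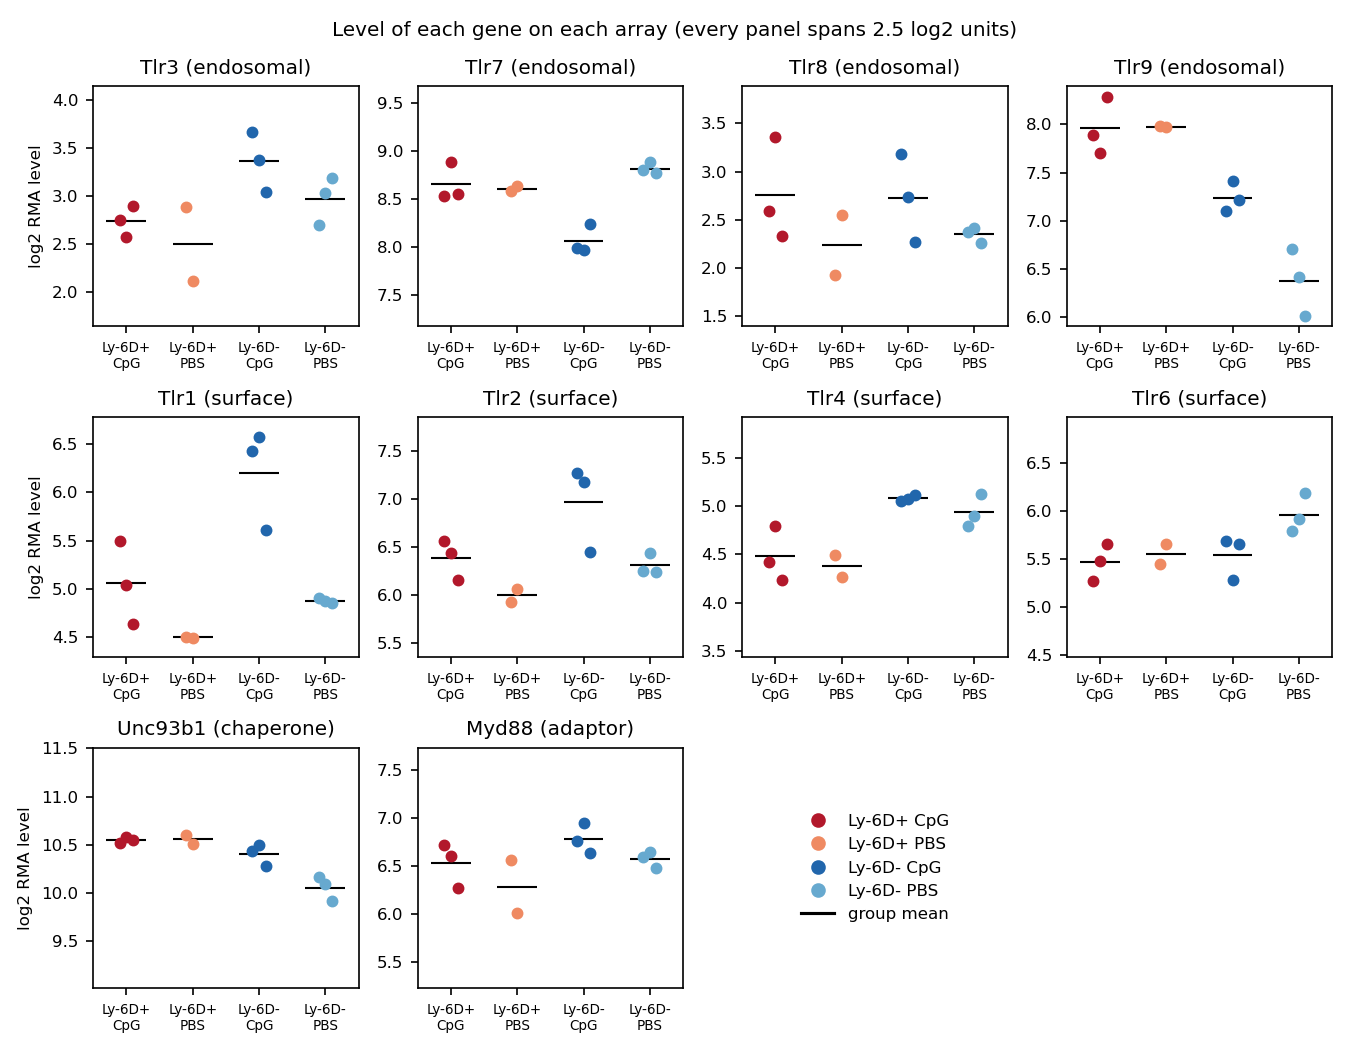
Log2 level of each of the 10 genes on each of the 11 arrays, by group, with the group mean as a line. Every panel spans 2.5 log2 units, so distances can be compared but heights cannot. The Tlr9 arrays of Ly-6D+ CLPs lie between 7.70 and 8.29, above the 6.01 to 7.41 of Ly-6D- CLPs, and the Tlr7 arrays of Ly-6D- CLPs after CpG, at 7.97 to 8.24, lie below all others.

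Tlr9, the endosomal receptor for unmethylated CpG DNA and thus for the agent given, was highest in Ly-6D+ CLPs whatever the treatment. Its log2 levels were 7.89, 7.70 and 8.29 in Ly-6D+ CLPs after CpG and 7.98 and 7.97 after PBS. In Ly-6D- CLPs they were 7.10, 7.41 and 7.21 after CpG and 6.70, 6.41 and 6.01 after PBS. The Ly-6D+ arrays of both treatments overlapped, all of them lay above every Ly-6D- array, and the Ly-6D- arrays after CpG lay above those after PBS.

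In order of their means, Ly-6D+ CLPs after CpG (7.96 ± 0.30, SD, n = 3) and after PBS (7.97 ± 0.01, SD, n = 2) stood first together and did not differ beyond their spread. Ly-6D- CLPs after CpG (7.24 ± 0.15, SD, n = 3) and after PBS (6.37 ± 0.34, SD, n = 3) followed. After PBS, Tlr9 was 3.03-fold higher in Ly-6D+ than in Ly-6D- CLPs (log2 difference 1.60, SE 0.21, limma adjusted p = 0.0028). It was the only one of the 5 calls among the 10 genes that held whichever array was left out, at 1.42 to 1.76 and an adjusted p of 0.00236 to 0.0368.

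After CpG the distance between the populations was 0.72 (SE 0.19) and did not pass (limma adjusted p = 0.0945), though the arrays did not overlap. With a variance trend in the fit it passed (limma adjusted p = 0.0426), as did the CpG change in Ly-6D- CLPs (limma adjusted p = 0.0263). In Ly-6D+ CLPs the CpG change of Tlr9 was -0.01 with a 95% interval of -0.47 to 0.45, which leaves room for moderate changes in either direction. In Ly-6D- CLPs the level stood 1.82-fold higher after CpG, with a 95% interval of 0.45 to 1.28 on the log2 scale, and did not pass with all genes and arrays in the usual fit (limma adjusted p = 0.076). The difference between these CpG changes was -0.88 (95% interval -1.50 to -0.26, unadjusted p = 0.0102, limma adjusted p = 0.658).

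Tlr7, the endosomal receptor for single-stranded RNA, was the 1 member that passed for CpG against PBS. Its log2 levels were 7.99, 7.97 and 8.24 in Ly-6D- CLPs after CpG, against 8.80, 8.88 and 8.77 after PBS. In Ly-6D+ CLPs they were 8.53, 8.88 and 8.55 after CpG, against 8.58 and 8.63 after PBS. The 3 arrays of Ly-6D- CLPs after CpG were the lowest of all 11, and the Ly-6D+ arrays of both treatments overlapped.

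Tlr7 fell by 0.75 on the log2 scale with CpG in Ly-6D- CLPs, a level 1.68-fold lower after CpG (SE 0.12, 95% interval -1.01 to -0.49, limma adjusted p = 0.03). In Ly-6D+ CLPs its change was 0.05 (95% interval -0.24 to 0.34). After CpG it was higher in Ly-6D+ than in Ly-6D- CLPs (log2 difference 0.59, SE 0.12, limma adjusted p = 0.0311). After PBS both Ly-6D+ arrays lay below the 3 Ly-6D- arrays, but that difference of -0.21 did not pass (limma adjusted p = 0.618).

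Both Tlr7 calls were narrow. The fall in Ly-6D- CLPs passed without Ly-6D+ CpG array 2 or 3 or Ly-6D- CpG array 3 and was lost when any 1 of the other 8 arrays was left out, with changes of -0.84 to -0.70 and an adjusted p of 0.0148 to 0.135. The difference after CpG passed without Ly-6D- CpG array 3 or Ly-6D- PBS array 2 or 3 and was lost when any 1 of the other 8 was left out, at 0.47 to 0.67 and an adjusted p of 0.0217 to 0.13. With only the groups compared in the fit, neither passed (limma adjusted p = 0.107 and 0.143).

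Tlr3, the endosomal receptor for duplex RNA, and Tlr8, whose human counterpart senses RNA degradation products, both lay among the dimmest 33.3% of genes. Tlr3 had log2 levels of 2.75, 2.57 and 2.90 in Ly-6D+ CLPs after CpG and 2.89 and 2.12 after PBS, against 3.67, 3.38 and 3.04 in Ly-6D- CLPs after CpG and 2.70, 3.03 and 3.19 after PBS. After CpG its Ly-6D+ arrays lay below its Ly-6D- arrays, a difference of -0.62 that did not pass (limma adjusted p = 0.24), and its groups overlapped in the other 3 comparisons of 2 groups. Tlr8 ranged from 1.92 to 3.36 over all 11 arrays, and its groups overlapped in all 4 comparisons of 2 groups. Its widest group, Ly-6D+ CLPs after CpG, ran from 2.33 to 3.36, so small changes of this dim gene could not be detected.

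Unc93b1, the chaperone of the endosomal receptors, followed the order of Tlr9 with smaller distances. On the log2 scale it was at 10.52, 10.58 and 10.55 in Ly-6D+ CLPs after CpG and 10.60 and 10.51 after PBS, against 10.43, 10.50 and 10.28 in Ly-6D- CLPs after CpG and 10.16, 10.09 and 9.91 after PBS. The Ly-6D+ groups overlapped, each lay above the Ly-6D- group of its own treatment, and the Ly-6D- arrays after CpG lay above those after PBS. After PBS, Unc93b1 was 1.42-fold higher in Ly-6D+ than in Ly-6D- CLPs (log2 difference 0.50, SE 0.11, limma adjusted p = 0.0465).

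That call passed without Ly-6D- CpG array 3 and was lost when any 1 of the other 10 arrays was left out, at 0.43 to 0.56 and an adjusted p of 0.047 to 0.266. It was also lost with each array centred on its median (limma adjusted p = 0.0585), with only the groups compared (limma adjusted p = 0.186) and without both CpG arrays numbered 3 (limma adjusted p = 0.066). The CpG change of Unc93b1 was 0.35 in Ly-6D- CLPs (95% interval 0.14 to 0.57, limma adjusted p = 0.162) and -0.00 in Ly-6D+ CLPs (95% interval -0.25 to 0.24), and neither passed. With a variance trend the change in Ly-6D- CLPs passed (limma adjusted p = 0.0278).

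Tlr1, which pairs with Tlr2 to bind bacterial lipopeptides, had its highest levels in Ly-6D- CLPs after CpG. Its log2 levels there were 6.43, 6.58 and 5.61, against 4.90, 4.87 and 4.85 in Ly-6D- CLPs after PBS. In Ly-6D+ CLPs they were 5.50, 5.04 and 4.63 after CpG, against 4.50 and 4.49 after PBS. In each population the arrays after CpG lay above those after PBS, and the spread was wide after CpG and narrow after PBS.

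After CpG, Tlr1 was 2.22-fold lower in Ly-6D+ than in Ly-6D- CLPs (log2 difference -1.15, SE 0.25, limma adjusted p = 0.047). This call held without Ly-6D+ CpG array 1 or Ly-6D- CpG array 3 and was lost when any 1 of the other 9 was left out, at -1.45 to -0.94 and an adjusted p of 0.00595 to 0.177. It was also lost with only the groups compared (limma adjusted p = 0.198) and with median centring (limma adjusted p = 0.057). After PBS the difference was -0.38 and did not pass (limma adjusted p = 0.707), with both Ly-6D+ arrays below the Ly-6D- arrays.

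The CpG change of Tlr1 in Ly-6D- CLPs was 1.34 (SE 0.25, 95% interval 0.77 to 1.90) and just missed the threshold (limma adjusted p = 0.0522). It passed without Ly-6D- CpG array 3, at 1.64 (limma adjusted p = 0.00861), and without Ly-6D+ CpG array 3 (limma adjusted p = 0.0489). Averaged over both populations the change was 0.95 (limma adjusted p = 0.0731), and it passed without Ly-6D- CpG array 3, at 1.10 (limma adjusted p = 0.00992). With all 11 arrays, the change in Ly-6D- CLPs also passed without the dimmest 33.3% of genes (limma adjusted p = 0.0355), with a variance trend (0.0198), with array weights (0.032) and with further quantile normalization (0.0436). The average passed with a variance trend (limma adjusted p = 0.0298) and with array weights (0.0334). Whether Tlr1 counts as called for CpG in Ly-6D- CLPs therefore depends on the setting, and in Ly-6D+ CLPs it passed under none of those tried.

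Tlr2, the partner of Tlr1 and of Tlr6, showed the same order of groups as Tlr1 with smaller distances. Its log2 levels were 7.27, 7.17 and 6.45 in Ly-6D- CLPs after CpG, against 6.25, 6.43 and 6.24 after PBS, and 6.56, 6.43 and 6.15 in Ly-6D+ CLPs after CpG, against 5.93 and 6.06 after PBS. In each population all arrays after CpG lay above those after PBS. The CpG changes were 0.66 in Ly-6D- CLPs (limma adjusted p = 0.193) and 0.39 in Ly-6D+ CLPs (limma adjusted p = 0.849), and neither passed.

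Without Ly-6D- CpG array 3, Tlr2 passed for CpG in Ly-6D- CLPs at 0.91 (limma adjusted p = 0.0153). Without that array it also passed for the average over the populations at 0.65 (limma adjusted p = 0.017), and between the populations after CpG at -0.84 (limma adjusted p = 0.0122). With both CpG arrays numbered 3 left out, the CpG changes in Ly-6D- CLPs were 1.64 for Tlr1 and 0.91 for Tlr2 (limma adjusted p = 0.00301 and 0.0108). Averaged over the populations they were then 1.21 and 0.71 (limma adjusted p = 0.00204 and 0.00871), and Tlr2 also passed between the populations after CpG, at -0.72 (limma adjusted p = 0.0253). The level of both genes on Ly-6D- CpG array 3 was the lowest of its group.

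Tlr4, the receptor for lipopolysaccharide, had lower levels in Ly-6D+ CLPs under both treatments and passed in neither comparison. The arrays read 4.42, 4.80 and 4.23 in Ly-6D+ CLPs after CpG and 4.49 and 4.27 after PBS, against 5.06, 5.08 and 5.12 in Ly-6D- CLPs after CpG and 4.80, 4.90 and 5.13 after PBS. No Ly-6D+ array reached a Ly-6D- array of its own treatment. The differences were -0.60 after CpG (limma adjusted p = 0.0713) and -0.56 after PBS (limma adjusted p = 0.146). Without Ly-6D+ CpG array 2 the difference after CpG passed at -0.76 (limma adjusted p = 0.0198), and without the dimmest 33.3% of genes it passed at -0.60 (limma adjusted p = 0.0469).

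Tlr6, which pairs with Tlr2 and lies beside Tlr1 on chromosome 5, did not follow Tlr1. Its log2 levels were 5.69, 5.28 and 5.65 in Ly-6D- CLPs after CpG, against 5.79, 5.91 and 6.18 after PBS, and 5.27, 5.48 and 5.65 in Ly-6D+ CLPs after CpG, against 5.45 and 5.65 after PBS. In Ly-6D- CLPs the arrays after CpG lay below those after PBS, a change of -0.42 (95% interval -0.75 to -0.09) that did not pass (limma adjusted p = 0.287). Tlr1 and Tlr6 are close relatives in sequence, and Tlr7 and Tlr8 lie next to each other on chromosome X. How far the probe sets of related receptors share sequence was not tested.

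Myd88, the shared adaptor, did not pass in any of the 6 comparisons. Its log2 levels were 6.72, 6.61 and 6.27 in Ly-6D+ CLPs after CpG and 6.56 and 6.01 after PBS, against 6.76, 6.95 and 6.64 in Ly-6D- CLPs after CpG and 6.60, 6.65 and 6.48 after PBS. The groups overlapped in all 4 comparisons of 2 groups. The 95% intervals of its CpG changes ran from -0.15 to 0.65 in Ly-6D+ CLPs and from -0.16 to 0.56 in Ly-6D- CLPs, so moderate changes remain possible in either.

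**Figure D2:**
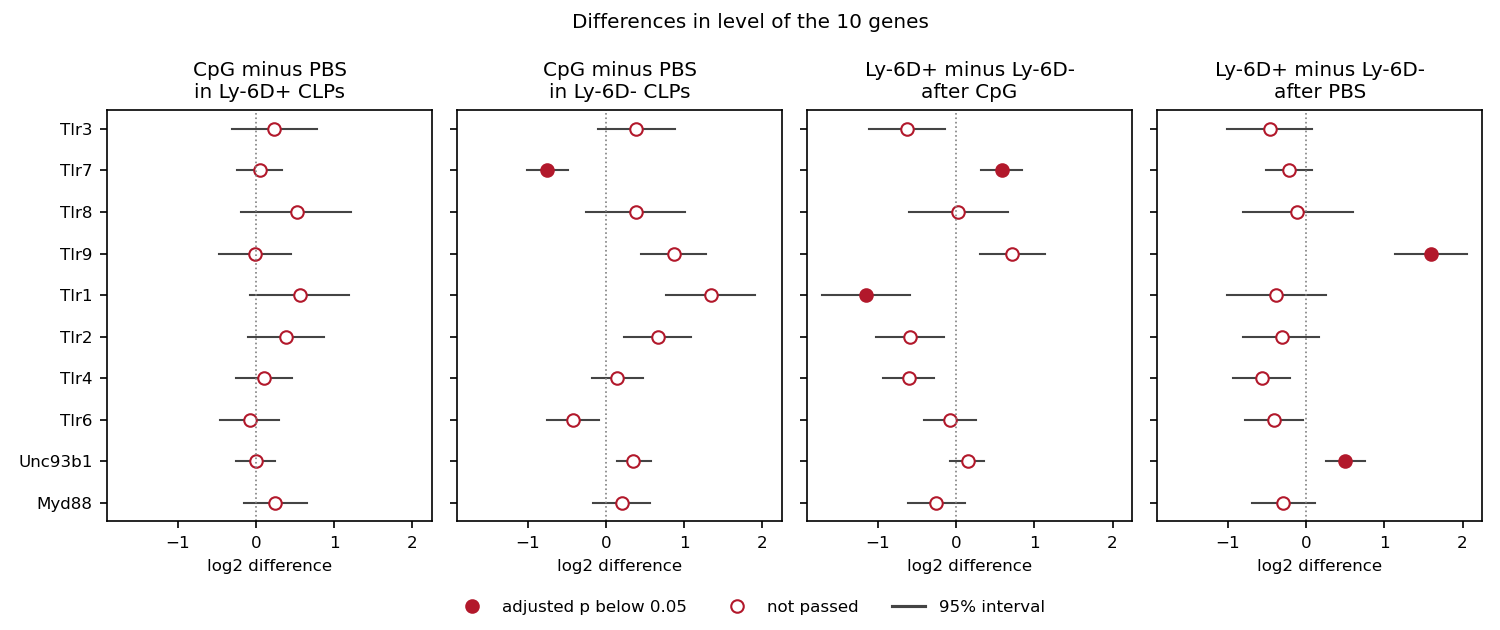
Log2 difference of each of the 10 genes in 4 comparisons, with the 95% interval of the limma fit as a line. Filled points passed at an adjusted p below 0.05. They are Tlr7 for CpG in Ly-6D- CLPs, Tlr7 and Tlr1 between the populations after CpG, and Tlr9 and Unc93b1 between the populations after PBS.

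The endosomal and the surface receptors were set beside each other as groups of 4 genes each. For CpG minus PBS the median change was 0.39 for the endosomal and 0.40 for the surface receptors in Ly-6D- CLPs, and 0.14 and 0.24 in Ly-6D+ CLPs. The medians over all 22180 genes were -0.0006 and 0.0032. In Ly-6D+ CLPs the endosomal median was 0.03 without PBS array 2, and the surface median was 0.15 without CpG array 2 and 0.36 without CpG array 3. The endosomal receptors did not move together in Ly-6D- CLPs, where Tlr7 had a change of -0.75 and Tlr9 one of 0.87. Their median there lay between Tlr3 at 0.39 and Tlr8 at 0.38, both among the dimmest 33.3% of genes. Within the surface receptors, Tlr6 had a change of -0.42 and Tlr1 one of 1.34.

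Between the populations the 4 surface receptors were all lower in Ly-6D+ CLPs, with a median difference of -0.59 after CpG and -0.39 after PBS. Of these 8 differences 1 passed, that of Tlr1 after CpG. Of all genes, 0.938% passed as lower after CpG and 0.798% after PBS. The smallest of the 8 differences was that of Tlr6 after CpG, at -0.07 (95% interval -0.41 to 0.26). Without single arrays it ran from -0.20 to 0.02, so its direction is not settled. The endosomal receptors were mixed, with median differences of 0.31 after CpG and -0.16 after PBS. Over all genes the medians were -0.0041 after CpG and -0.0091 after PBS. The endosomal medians rest on few genes, and without Ly-6D+ CpG array 2 the value after CpG was 0.10. Without Ly-6D+ PBS array 1 the value after PBS was 0.01.

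Genes whose arrays did not overlap between 2 groups were also counted, without a test. In Ly-6D- CLPs 6 of the 10 genes had no overlap between CpG and PBS (Tlr9, Tlr1, Tlr2 and Unc93b1 higher, Tlr7 and Tlr6 lower), against 15.7% of all genes, 8.50% higher and 7.20% lower. In Ly-6D+ CLPs 2 had none, Tlr1 and Tlr2, both higher after CpG, against 20.4% of all genes, 10.7% higher. Between the populations after CpG 6 had none, 3 higher and 3 lower in Ly-6D+ CLPs, against 16.9% of all genes, 7.89% higher and 9.04% lower. After PBS 7 had none, 2 higher and 5 lower in Ly-6D+ CLPs, against 26.9% of all genes, 12.9% higher and 14.0% lower.

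Other genes of the pathway were counted from 6 lists. Of the 15 measured genes that traffic or process endosomal receptors and their ligands, 2 were higher in Ly-6D+ than in Ly-6D- CLPs after CpG and 5 after PBS, and 0 were lower, where 1.20% and 1.18% of all genes were higher. Ctsb and Ctsl, lysosomal cathepsins of the kind that cleave the endosomal receptors into their active form, passed under both treatments. Ctsb was at 10.60 to 10.72 in Ly-6D+ CLPs after CpG, against 9.62 to 10.00 in Ly-6D- CLPs, and at 10.71 to 10.81 after PBS, against 9.45 to 9.54. Its difference was 0.87 after CpG (SE 0.11, limma adjusted p = 0.00154) and 1.26 after PBS (SE 0.12, limma adjusted p = 3.32e-04). Ctsl differed by 1.20 after CpG and 1.22 after PBS (SE 0.10 and 0.11, limma adjusted p = 1.19e-04 and 2.07e-04).

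The other 3 of these genes passed after PBS and not after CpG. Pld4, an exonuclease that degrades nucleic acid ligands in endosomes, was higher in Ly-6D+ CLPs by 1.04 (limma adjusted p = 0.0171). Grn, the progranulin gene whose product aids delivery of CpG DNA to Tlr9, was higher by 0.72 (limma adjusted p = 0.0201). Slc15a4, an endolysosomal transporter needed for Tlr7 and Tlr9 signalling, was higher by 0.59 (limma adjusted p = 0.0453). After CpG their differences were 0.46, 0.15 and 0.43. Whether these differences changed with CpG was tested as the difference of the CpG changes, and 0 of the 15 genes passed by limma, while 5 had an unadjusted p below 0.05 against 6.37% of all genes. For CpG minus PBS 0 of the 15 passed by limma in Ly-6D+ or in Ly-6D- CLPs. The unadjusted p was below 0.05 for 0 of them in Ly-6D+ and for 8 in Ly-6D- CLPs, against 6.51% and 12.0% of all genes. In Ly-6D- CLPs 12 of the 15 had a positive change.

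The calls of Ctsb and Ctsl held whichever array was left out, and those of the other 3 did not. Pld4 was lost without Ly-6D+ PBS array 1 or 2 or Ly-6D- PBS array 3 (limma adjusted p up to 0.132). Grn was lost without Ly-6D+ PBS array 1 or 2 or Ly-6D- PBS array 1 or 3 (up to 0.15). Slc15a4 held without Ly-6D- PBS array 3 and was lost without each of the other 10 (up to 0.205), with both CpG arrays numbered 3 left out (0.0769) and with further quantile normalization (0.0597).

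Of the 4 further Toll-like receptors measured, 1 passed, higher in Ly-6D+ CLPs after PBS, against 1.18% of all genes. Tlr12, which in mice recognises a protozoan profilin, was at 6.19 to 6.72 in Ly-6D+ CLPs after PBS, against 4.48 to 5.39 in Ly-6D- CLPs, a difference of 1.48 (SE 0.23, limma adjusted p = 0.00858). It was lost without Ly-6D+ PBS array 1 (limma adjusted p = 0.109). After CpG the difference was 0.58 (limma adjusted p = 0.255), and the CpG change in Ly-6D- CLPs was 1.08 (limma adjusted p = 0.0538).

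Of the 7 accessory proteins of surface receptors, 1 was lower in Ly-6D+ CLPs under both treatments, against 0.938% of all genes after CpG and 0.798% after PBS. Lbp, which binds lipopolysaccharide, was at 5.88 to 6.27 in Ly-6D+ CLPs after CpG, against 7.41 to 7.71 in Ly-6D- CLPs, a difference of -1.48 (SE 0.16, limma adjusted p = 6.75e-04). After PBS the difference was -1.14 (SE 0.18, limma adjusted p = 0.00769), and it was lost without Ly-6D+ PBS array 1 (limma adjusted p = 0.094). For CpG minus PBS, 0 of the 7 passed in either population by limma. In each, 1 had an unadjusted p below 0.05, against 6.51% of all genes in Ly-6D+ and 12.0% in Ly-6D- CLPs.

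Downstream of the receptors few genes passed. Of all genes, 1.20% were higher in Ly-6D+ than in Ly-6D- CLPs after CpG and 1.18% after PBS. With CpG in Ly-6D- CLPs 0.302% of all genes were higher. Of 15 adaptors, kinases and ligases, Pik3ap1, an adaptor that links Toll-like receptors to PI3-kinase, was higher in Ly-6D+ CLPs by 0.77 after CpG (limma adjusted p = 0.00136) and by 0.66 after PBS (limma adjusted p = 0.00805). The value after PBS was lost without Ly-6D+ PBS array 1 or 2 (limma adjusted p up to 0.0733). Of the 4 interferon regulatory factors, Irf8, a factor of B-cell, dendritic cell and monocyte development, was higher in Ly-6D+ CLPs after PBS by 0.72 (limma adjusted p = 0.00404). In the 10 negative regulators, Dok3, an inhibitory adaptor, passed in 2 comparisons. With only the groups compared in the fit, which then has fewer arrays, the differences after PBS were lost for Irf8 (limma adjusted p = 0.077), Tlr12 (0.152), Lbp (0.0898), Grn (0.0985), Slc15a4 (0.204) and Pik3ap1 (0.0505).

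Dok3 was at 6.06 to 6.18 in Ly-6D- CLPs after CpG, against 5.40 to 5.56 after PBS, and at 5.67 to 5.91 in Ly-6D+ CLPs after CpG, against 6.32 to 6.63 after PBS. It rose by 0.61 in Ly-6D- CLPs (SE 0.11, limma adjusted p = 0.0444), a call lost when any 1 of the 11 arrays was left out, at 0.56 to 0.64 (limma adjusted p = 0.0504 to 0.176). It was also lost without both CpG arrays numbered 3 (limma adjusted p = 0.0589) and with only the groups compared (limma adjusted p = 0.114). After PBS it was higher by 0.98 in Ly-6D+ than in Ly-6D- CLPs (limma adjusted p = 0.0021), which held whichever array was left out. After CpG Dok3 was lower in Ly-6D+ CLPs without overlap of arrays, at a difference of -0.30, and did not pass (limma adjusted p = 0.248). Its change in Ly-6D+ CLPs was -0.67 and did not pass (limma adjusted p = 0.151).

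**Figure D3:**
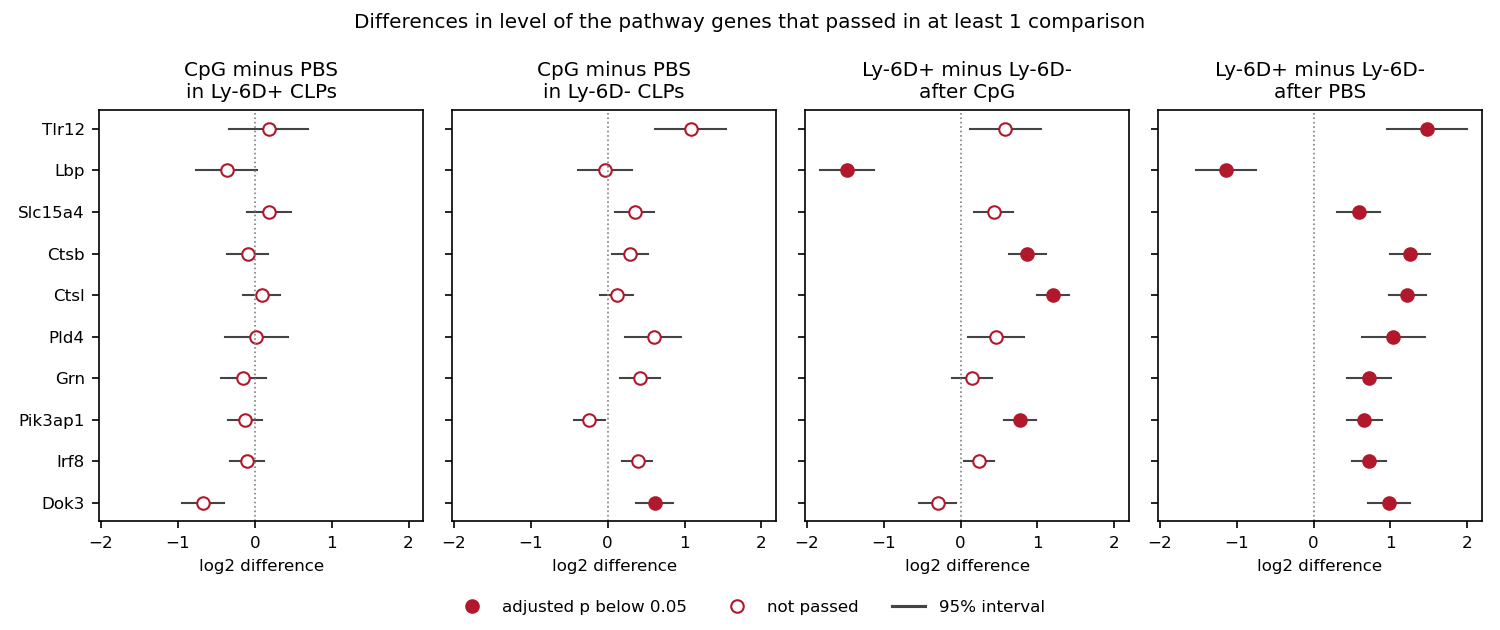
Log2 difference of the 10 pathway genes that passed in at least 1 comparison, with the 95% interval of the limma fit as a line and filled points for an adjusted p below 0.05. Nearly all calls lie between the populations, where Lbp is lower and Ctsb, Ctsl and Pik3ap1 are higher in Ly-6D+ CLPs under both treatments.

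Tlr9 and Tlr1 were the 2 members whose group means spanned at least 1 log2 unit, and the genes with the most similar profiles over the 11 arrays were taken for them. Likeness was the root mean square difference between profiles centred on their own means. Nearest to Tlr9, whose own root mean square about its mean was 0.69, were Itgax at 0.19, Carmil1 at 0.20 and Tex2 at 0.22. Itgax encodes the integrin CD11c of dendritic cells, and its group means were 7.54 in Ly-6D+ CLPs after CpG and 7.53 after PBS, against 6.68 and 6.14 in Ly-6D- CLPs. Nearest to Tlr1, with 0.70 about its mean, were Ms4a6c at 0.20, Tspan17 at 0.22 and Mt1, a metallothionein gene, at 0.24. Ms4a6c had group means of 9.44 in Ly-6D- CLPs after CpG and 8.16 after PBS, against 8.28 and 7.71 in Ly-6D+ CLPs.

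Markers of other cell types moved with several of these genes. Of 11 measured plasmacytoid dendritic cell markers, 7 were higher in Ly-6D+ than in Ly-6D- CLPs after CpG and 7 after PBS, where 1.20% and 1.18% of all genes were higher. These included Siglech and Spib under both treatments, and none of the 11 was among the dimmest 33.3% of genes. The mean of the list per array was 8.84 to 9.07 in Ly-6D+ CLPs after CpG and 8.77 to 8.98 after PBS, against 7.69 to 7.88 in Ly-6D- CLPs after CpG and 7.38 to 7.59 after PBS. This is the order in which Tlr9, Unc93b1 and Tlr12 stood between the populations. With CpG in Ly-6D- CLPs, where the levels of these 3 genes were also above those after PBS, Cd300c rose by 1.21 and Ly6c2 by 1.09 (limma adjusted p = 0.0416 and 0.03). These were 2 of the 11 markers, against 0.302% of all genes higher. In both directions together, 8 of the 11 had an unadjusted p below 0.05 against 12.0% of all genes. The change was positive for 7 of the 11 and negative for 4, Siglech (-0.35), Tcf4 (-0.24), Ccr9 (-0.70) and Cox6a2 (-0.19). The part of these markers in those results was not tested.

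Of 16 granulocyte and monocyte markers, 7 were lower in Ly-6D+ than in Ly-6D- CLPs after CpG and 3 after PBS, and 0 were higher, where 0.938% and 0.798% of all genes were lower. In Ly-6D- CLPs 2 of them, F13a1 and Ccr2, rose with CpG, by 1.81 and 1.57, against 0.302% of all genes higher. In Ly-6D+ CLPs 0 of the 16 passed, but both genes were also higher after CpG. F13a1 was there at 5.47 to 5.63, against 4.74 to 4.75 after PBS, and Ccr2 at 6.64 to 6.76, against 5.71 to 5.85. By limma, 4 of the 16 had an unadjusted p below 0.05 in Ly-6D+ CLPs, against 6.51% of all genes. In Ly-6D- CLPs 6 had, against 12.0%. For the difference of the CpG changes 0 of the 16 passed, and 6 had an unadjusted p below 0.05, against 6.37%. The mean of the list per array was 7.70 to 8.04 in Ly-6D+ CLPs after CpG and 7.45 to 8.02 after PBS, against 8.57 to 9.04 in Ly-6D- CLPs after CpG and 8.27 to 8.48 after PBS. None of the 16 was among the dimmest 33.3% of genes. The mean of the list was highest in Ly-6D- CLPs after CpG, where Tlr1 and Tlr2 were highest, and so were the group means of 10 of the 16 genes. Elane, S100a8, S100a9 and Csf3r had their highest group mean in Ly-6D- CLPs after PBS, and Ly6g and Fcgr3 in Ly-6D+ CLPs after CpG. The part of these markers in the Tlr1 and Tlr2 results was not tested.

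The CLP genes themselves also differed, in both directions between the populations. After CpG 4 of 7 passed, 3 higher and 1 lower in Ly-6D+ CLPs, against 2.14% of all genes, 1.20% higher and 0.938% lower. After PBS 4 passed, 2 higher and 2 lower, against 1.98% of all genes, 1.18% higher and 0.798% lower. Kit was lower in Ly-6D+ CLPs by 0.67 after CpG and by 1.08 after PBS, and Cd27 by 0.67 after PBS. The mean of the 7 measured CLP genes per array was 9.35 to 9.69 in Ly-6D- CLPs after CpG, against 9.96 to 9.98 after PBS. In Ly-6D+ CLPs it was 10.37 to 10.52 after CpG, against 10.42 to 10.45 after PBS. The list holds Ly6d, the gene of the protein used for the sort, which differed by 4.85 after CpG and 4.35 after PBS. The sort thus raises this mean in Ly-6D+ CLPs, and its order between the populations is no result about CLP genes. In Ly-6D- CLPs 2 of the 7 passed as lower with CpG, against 0.243% of all genes. Il7r fell by 0.81 and Rag2 by 0.75 on the log2 scale, in the same group in which Tlr7 was lowest. All 7 had a negative change there with an unadjusted limma p below 0.05, against 12.0% of all genes in both directions. Of 8 mature B-cell markers, 2 were higher in Ly-6D+ than in Ly-6D- CLPs after PBS, against 1.18% of all genes. With CpG in Ly-6D- CLPs 1 of them passed as lower, against 0.243% of all genes. Ms4a1, Cr2 and Fcer2a were among the dimmest 33.3% of genes. Of 8 conventional dendritic cell markers, Itgax was higher in Ly-6D+ CLPs under both treatments, against 1.20% of all genes after CpG and 1.18% after PBS. Batf3 was lower there after CpG, against 0.938% of all genes. For CpG minus PBS 0 of these 8 passed in either population. By limma, 1 had an unadjusted p below 0.05 in Ly-6D+ and 4 in Ly-6D- CLPs, against 6.51% and 12.0% of all genes. Averaged over the populations 1 passed, as higher, against 0.482% of all genes in both directions. The Batf3 means were 4.52 after CpG and 3.58 after PBS in Ly-6D+ CLPs, and 5.41 and 4.50 in Ly-6D- CLPs. Of 10 T and NK cell markers, 0 passed by limma in the 4 comparisons of 2 groups. In each, 2 to 3 had an unadjusted p below 0.05, against 6.51% to 12.7% of all genes. Cd3g, Klrb1c and Eomes were among the dimmest 33.3% of genes. The part of these genes in the results was not tested either.

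**Figure D4:**
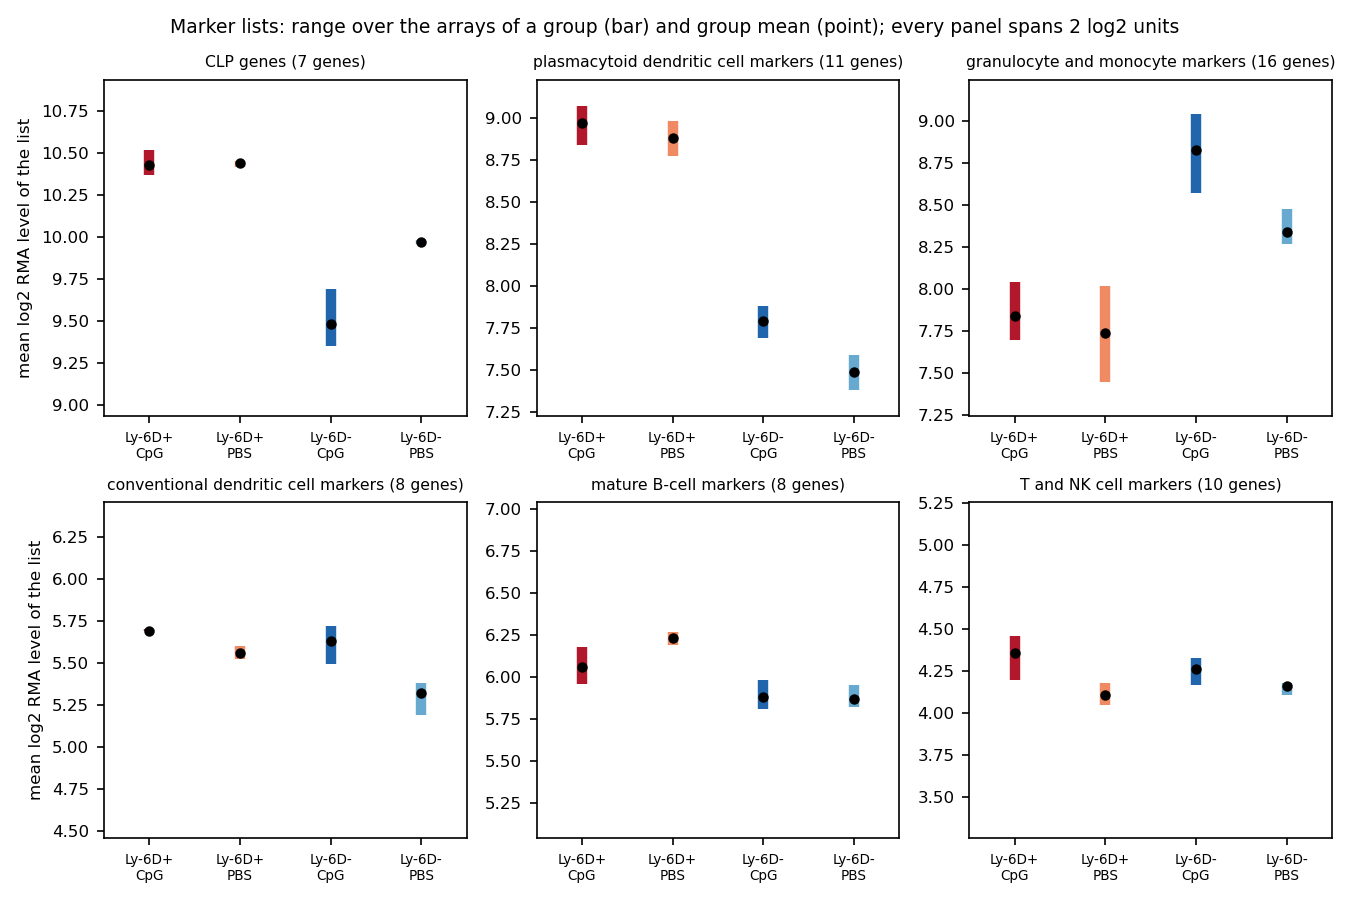
Mean log2 level per array of 6 lists of marker genes, as the range over the arrays of a group (bar) and the group mean (point), with every panel spanning 2 log2 units. The mean of the plasmacytoid dendritic cell markers is highest in Ly-6D+ CLPs, at 8.77 or more, and that of the granulocyte and monocyte markers is highest in Ly-6D- CLPs after CpG, at 8.57 to 9.04.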

How the data were processed

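RNA of sorted CLPs was measured on 11 Affymetrix arrays. Per the labels' protocols, RNA was amplified with the NuGen Ovation Pico WTA kit and biotin-labelled. The deposited table holds log2 values of 41345 probe sets that the authors made in Partek by RMA, as recorded per the submitters' processing notes. Neither versions nor settings of either are given in the sources used here. The method corrects background, equalises array distributions and summarises probes, so values are relative between arrays.

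Of the probe sets, 23521 carry exactly 1 symbol in the platform annotation, 1814 several and 16010 none. For each of 22180 genes the brightest such probe set over the 11 arrays was used, and each of the 10 genes described had 1 such probe set. The model, 1 mean per group, was run in R 4.3.3 with limma 3.58.1 (lmFit, then eBayes, 7 residual and 3.48 prior degrees of freedom), with 6 contrasts and Benjamini-Hochberg adjustment over all genes. SE and 95% intervals come from that fit. The labels name no batch. Array medians lay between 3.85 and 3.96. The fit was tested on simulated data. Figures were drawn with matplotlib 3.10.9.

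The members and the lists were chosen with earlier results of these data known. All members are named, and of the pathway lists every gene that passed in a comparison. Alternatives were averaging the probe sets of a gene, every probe set by itself, the dimmest 33.3% of genes left out, array weights, a variance trend with robust estimation, fitting only the groups compared, further quantile normalization, centring arrays on their median, the replicate number as a block, a looser threshold of 0.10, a 1.5-fold minimum, and leaving out each array. Without 1 Ly-6D+ PBS array, the lone array left is assumed to vary like the other groups. Some genes of the lists were not analysed here, among them Dnase2a, Chuk, Irak4, Traf3, Irf5, Il1rl1, Rag1, Il2rg, Ly6a, Runx2, Clec9a and Ighd.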

Additional observations from a re-analysis of the deposited data

Results flagged for a closer look

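The populations stood in opposite order under the 2 treatments for Tlr7, with no overlap of arrays either time. Its Ly-6D+ arrays lay above its Ly-6D- arrays after CpG and below them after PBS, as did the arrays of 0.694% of all genes in this or the reverse order. The difference of its CpG changes, Ly-6D+ minus Ly-6D-, was 0.80 on the log2 scale (SE 0.18, unadjusted p = 0.00104) and did not pass (limma adjusted p = 0.538).

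For Dok3, Grn and Irf8, which had passed in another comparison, and for Lman1, a pathway gene that had passed in none, the arrays after CpG lay above those after PBS in Ly-6D- CLPs and below them in Ly-6D+ CLPs, an opposition without overlap that 0.884% of all genes showed in either order. The differences of their CpG changes were -1.28 for Dok3, -0.57 for Grn, -0.48 for Irf8 and -0.37 for Lman1 on the log2 scale. None passed (limma adjusted p = 0.231, 0.636, 0.622 and 0.758). The populations also stood in opposite order for Dok3, without overlap, as for 0.694% of all genes. Its Ly-6D+ arrays lay below its Ly-6D- arrays after CpG and above them after PBS.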

How the results depend on the processing

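Over 60 member values, 1302 of 1408 alternative results kept their direction and their side of the threshold. Of the rest, 45 lost a call, 31 gained one and 30 changed sign, none of the last being called. Most of the 60 values were not called, so this total says little of the calls. Each member had 1 probe set, so averaging or separating probe sets left its values unchanged, and the looser threshold could not lose a call. All losses fell on Tlr7, Tlr1 and Unc93b1. Leaving out single arrays lost each Tlr7 call for 8 arrays, that of Tlr1 for 9 and that of Unc93b1 for 10. Tlr9 between the populations after PBS passed under all alternatives. The count of members that passed for CpG in Ly-6D- CLPs, 1 with all arrays, was 0 with only the groups compared, 4 with a variance trend, 2 without the dimmest 33.3% of genes, with array weights or with further quantile normalization, 3 at an adjusted p below 0.10, 3 without both CpG arrays numbered 3, and 0 to 3 without single arrays. For the average it was 2 with a variance trend, 1 with array weights or at an adjusted p below 0.10, 2 without both CpG arrays numbered 3, and 0 to 2 without single arrays, against 0. Between the populations after CpG the count of 2 became 0 with only the groups compared, 1 with median centring, 3 with a variance trend, without the dimmest 33.3% of genes or without both CpG arrays numbered 3, 4 at an adjusted p below 0.10, and 0 to 3 without single arrays. After PBS the count of 2 became 1 with only the groups compared, with median centring, without both CpG arrays numbered 3 or at 1.5-fold at least, and 1 to 2 without single arrays. The cause was not tested, but the fit of only the groups compared has fewer arrays. For Tlr1 after CpG it also leaves out the PBS groups, which varied less. Their SDs were 0.00 in Ly-6D+ and 0.03 in Ly-6D- CLPs, against 0.44 and 0.52 in the CpG groups. The median of the endosomal receptors for CpG in Ly-6D- CLPs was 0.58 without both CpG arrays numbered 3 and 0.20 to 0.58 without single arrays. Between the populations it was 0.10 to 0.40 after CpG and -0.19 to 0.01 after PBS without single arrays. For CpG in Ly-6D+ CLPs the endosomal median was 0.03 to 0.17 and the surface median 0.15 to 0.36 without single arrays.

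Deviations of same-numbered arrays correlated at -0.034 to 0.176 and of others at -0.127 to 0.091. Between the populations after CpG, same-numbered arrays correlated at 0.058 to 0.176 and others at -0.127 to 0.039. After PBS the values were -0.006 to 0.028 and -0.032 to 0.032. Whether same-numbered arrays shared animals or a batch was not tested. With the replicate block the counts were 2 for CpG in Ly-6D- CLPs, 1 for the average, and 1 between the populations after CpG and 1 after PBS, and with a replicate block within treatment 2 for CpG in Ly-6D- CLPs. The calls gained were those of Tlr1, and the lost ones were Tlr7 after CpG (limma adjusted p = 0.0523) and Unc93b1 (0.094), Slc15a4 (0.0612) and, for CpG in Ly-6D- CLPs, Dok3 (0.0697). Near 0, signs turned. In Ly-6D+ CLPs the CpG change of Unc93b1 became 0.04 with the replicate block and 0.00 within treatment, and that of Tlr9 0.00 within treatment. Without single arrays the CpG changes in Ly-6D+ CLPs ranged over -0.15 to 0.62 for Tlr3, -0.07 to 0.11 for Tlr7, -0.18 to 0.12 for Tlr9, -0.06 to 0.23 for Tlr4, -0.18 to 0.01 for Tlr6, -0.05 to 0.04 for Unc93b1 and -0.03 to 0.52 for Myd88. The difference of the CpG changes ranged over -0.54 to 0.23 for Tlr3, -0.18 to 0.45 for Tlr8, -0.20 to 0.08 for Tlr4 (0.10 without both CpG arrays numbered 3) and -0.23 to 0.32 for Myd88. Between the populations Tlr8 ranged over -0.27 to 0.25 after CpG and -0.42 to 0.21 after PBS, and Tlr6 over -0.20 to 0.02 after CpG. With 2 to 3 arrays per group and no detection values, changes of the dim genes Tlr3 and Tlr8 are the least certain.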
